A study of Mus musculus with 2 samples.

Results

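Ferritin heavy chain mRNA (Fth1) was highest in the visceral endoderm-like cells of the mouse embryo at embryonic day 7 (E7). In all 9 cell populations, extraembryonic ones included, its level was higher in the Yap1-deleted library than in the control library. The ratio was 1.35 in epiblast-like cells, and 1 of the 9 counting intervals included a ratio of 1. The embryo pools differed in sex composition. Among cells with Y-linked UMIs alone, the ratio was 0.777 in Foxf1 and Hand1 mesoderm-like and 0.651 in blood and endothelial progenitor-like cells. The 8 genes described here store, take up, export or sense iron: Fth1, Ftl1, Tfrc, Trf, Slc40a1, Slc11a2, Ireb2 and Aco1. They were chosen by symbol, and each matched a single row of the 32285 rows of the count tables.

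The study compared single-cell RNA-seq of embryos at E7 in which Yap1, a transcriptional co-activator of the Hippo pathway, was deleted by Sox2-Cre with that of control embryos, and each genotype was represented by 1 library made from several pooled embryos. Yap1 cKO embryos were Sox2-Cre:Yap flox/flox. For the sequenced embryos the study gives the control as heterozygous Sox2-Cre:Yap flox/+, as does the series. Its sample label reads WT, and the general mouse methods describe Cre-negative flox/flox littermates as controls. The control genotype was not checked here against the counts. Sox2-Cre acts in the epiblast and its descendants and not in the extraembryonic lineages that arise earlier, which limits the visceral endoderm and extraembryonic ectoderm as models of Yap1 loss. Because there were no replicate libraries, no difference between genotypes could be tested: all intervals below are 95% intervals of counting error only, cells of a library were not treated as replicates, and differences between embryos, litters or library preparations cannot be told apart from genotype.

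Iron reaches most cells bound to transferrin (Trf), is taken in by the transferrin receptor (Tfrc), leaves the endosome through Slc11a2, is stored in ferritin shells made of Fth1 and Ftl1 chains and leaves the cell through ferroportin (Slc40a1). The cytosolic iron regulatory proteins encoded by Aco1 and Ireb2 bind a short RNA hairpin, the iron-responsive element, when iron is scarce. A hairpin in the 5′ UTR blocks translation and hairpins in the 3′ UTR protect the mRNA from decay. In the early mouse embryo the visceral endoderm is an absorptive epithelium that supplies the embryo with nutrients and secretes transferrin.

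The letters of the iron-responsive element are shown because they show in which members, and in which UTR, the common form of the hairpin was found. Each run is 30 bases of a GENCODE M21 transcript (GRCm38), and capitals mark the 6-base loop CAGTGN, which had to be preceded by 5 bases able to pair with the 5 bases after it (G with T included) and, before these, by a C.
Fth1 5′ UTR, chr19:9982732-9982761, plus strand: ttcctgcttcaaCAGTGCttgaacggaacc
Ftl1 5′ UTR, chr7:45459778-45459807, minus strand: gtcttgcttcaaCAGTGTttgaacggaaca
Slc40a1 5′ UTR, chr1:45925464-45925493, minus strand: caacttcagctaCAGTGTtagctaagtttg
Tfrc 3′ UTR, chr16:32631219-32631248, plus strand: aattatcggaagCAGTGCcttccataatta
Tfrc 3′ UTR, chr16:32631598-32631627, plus strand: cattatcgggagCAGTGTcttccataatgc
Tfrc 3′ UTR, chr16:32631663-32631692, plus strand: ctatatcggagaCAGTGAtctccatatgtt
Tfrc 3′ UTR, chr16:32631710-32631739, plus strand: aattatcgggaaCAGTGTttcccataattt
The same letters occurred in the 5′ UTR of 0.148% of 20883 genes and in the 3′ UTR of 0.614% of 21011 genes. No match lay in the annotated transcripts of Trf, Slc11a2, Ireb2 or Aco1, which says only that these letters were not found there. Slc11a2 is known to have a transcript form with a 3′ element of a different shape, which this pattern does not cover. These protein-coding genes lie at chr9:103204001-103230444 (Trf, minus strand), chr15:100387898-100425072 (Slc11a2, minus strand), chr9:54863789-54912530 (Ireb2, plus strand) and chr4:40143081-40198338 (Aco1, plus strand). UMI counts report mRNA abundance, so translational control through a 5′ hairpin is outside what was measured.

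The control library held 791 barcodes and the Yap1 cKO library 864 barcodes with at least 5000 detected genes, with medians of 75715 and 80921 UMIs per barcode. Only 2 barcodes were shared between the libraries. These cells were sorted into 9 populations by summed marker genes, none of which is a member. The cells gated on T, Mixl1, Evx1, Fgf8 and Eomes are called the Fgf8 and Mixl1 population. Its leading genes held 2 markers of the anterior visceral endoderm list and 1 of its own list. All 5 of its own markers were at least 1.5-fold higher there than in the other gated cells. Levels are given in CPM, the summed UMIs of a gene in a population scaled to a total of 1000000 UMIs. For the deleted gene Yap1, epiblast-like levels were 28.3 CPM (control) and 1.21 CPM (Yap1 cKO), extraembryonic ectoderm-like levels 24.8 and 17.9 CPM, visceral endoderm-like levels 32 and 27.4 CPM and anterior visceral endoderm-like levels 40.2 and 15.3 CPM. Both libraries are labelled female, yet both held cells with Y-linked UMIs, 51.7% of control and 15.5% of Yap1 cKO cells, so the embryo pools differed in sex composition.

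Most members differed between visceral endoderm-like and epiblast-like cells. The visceral endoderm-like level was more than 2-fold that of epiblast-like cells, in both libraries, for 6 of 8 members (Fth1, Ftl1, Trf, Slc40a1, Slc11a2 and Aco1). It was lower by more than 2-fold for Tfrc. Of all genes with at least 50 UMIs over both populations together in each library, 34.9% were past this fold in either direction. Trf counted as measured only through its visceral endoderm-like UMIs, with 13 (control) and 18 (Yap1 cKO) UMIs in epiblast-like cells. Ireb2 was within that fold, at 1.2 times the epiblast-like level in control and 1.14 times in Yap1 cKO cells.

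**Figure D1:**
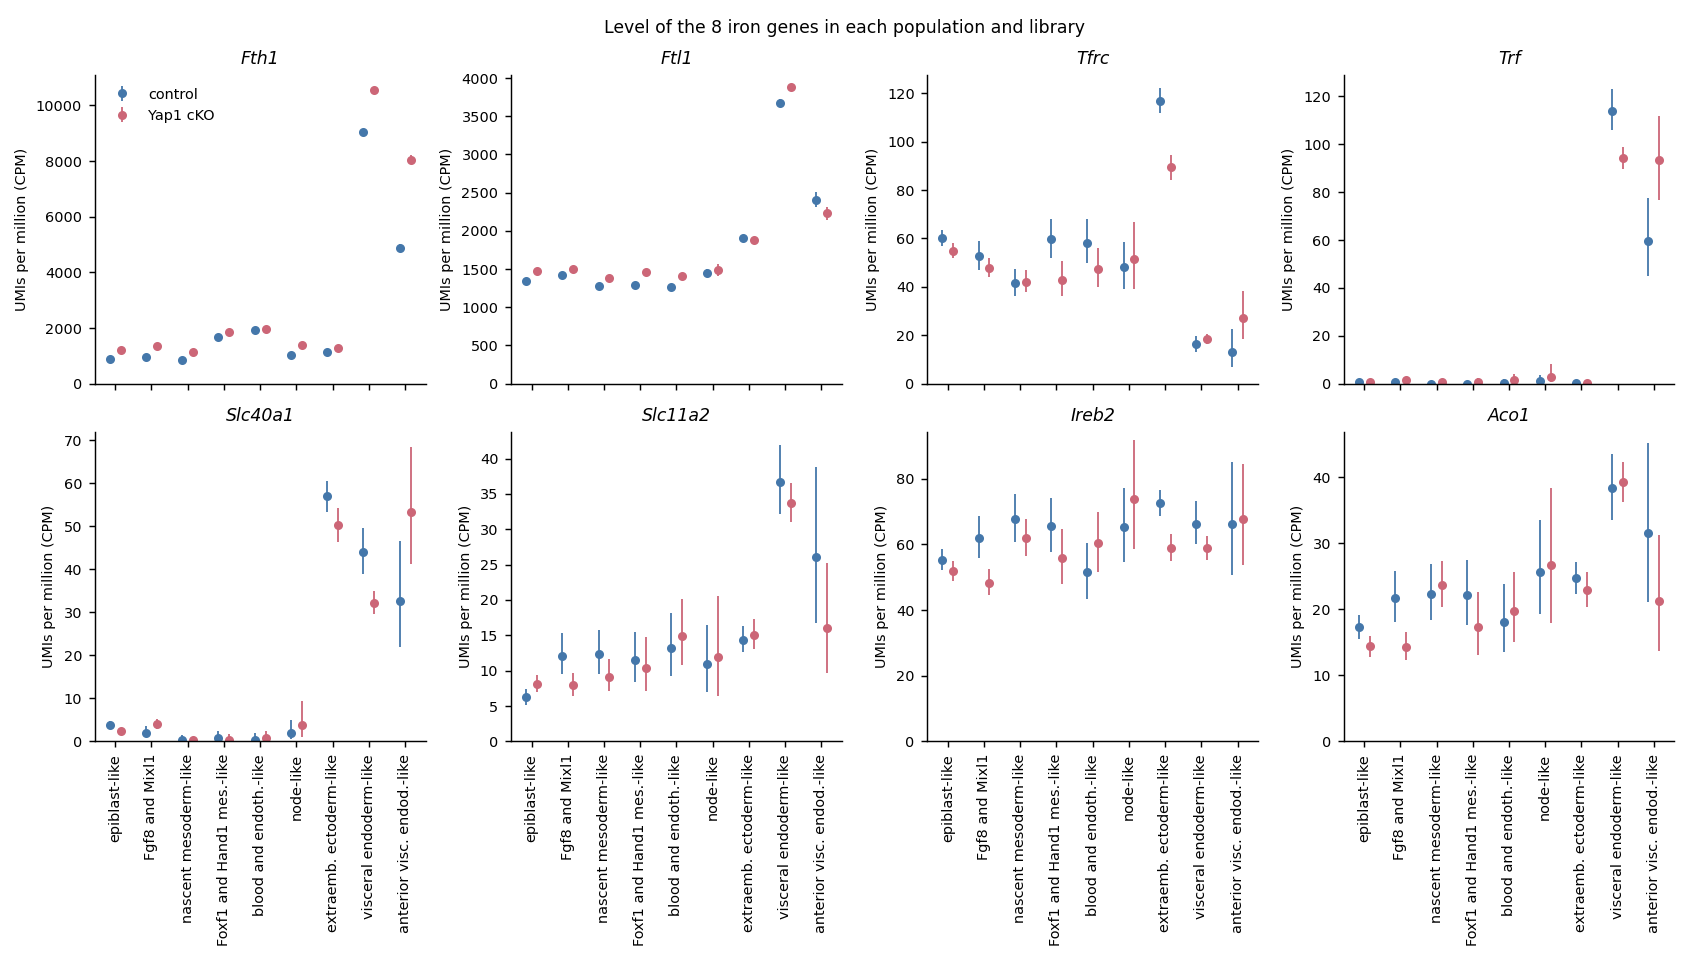
CPM of each iron gene (linear axis from 0, scaled per gene) in the 9 populations, with control and Yap1 cKO libraries as separate points and bars for 95% counting intervals. Fth1 and Ftl1 are highest in visceral endoderm-like cells in both libraries, whereas Tfrc is highest in extraembryonic ectoderm-like cells.

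Fth1 encodes the heavy ferritin chain, which carries the ferroxidase centre that oxidises iron for storage. In control cells it stood at 854 CPM in nascent mesoderm-like, 887 in epiblast-like, 941 in Fgf8 and Mixl1, 1035 in node-like, 1154 in extraembryonic ectoderm-like, 1687 in Foxf1 and Hand1 mesoderm-like, 1940 in blood and endothelial progenitor-like, 4883 in anterior visceral endoderm-like and 9052 in visceral endoderm-like cells. In Yap1 cKO cells the same populations, in the same sequence, gave 1132, 1195, 1345, 1391, 1298, 1873, 1970, 8041 and 10567 CPM. Both orders ran from nascent mesoderm-like to visceral endoderm-like cells, and only 1 of 8 neighbouring pairs in control and 2 of 8 in Yap1 cKO had overlapping intervals. Within the embryonic populations, the Foxf1 and Hand1 mesoderm-like and the blood and endothelial progenitor-like cells were the highest in both libraries.

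Single cells spread widely around these sums. In visceral endoderm-like cells the lowest control cell held 2077 CPM, the median cell 9199 CPM and the 90th percentile cell 12580 CPM. Among control epiblast-like cells the 10th percentile, median and 90th percentile were 667, 838 and 1093 CPM, so the central ranges of these populations did not overlap. The interval from the 10th to the 90th percentile in Yap1 cKO epiblast-like cells, 779 to 1603 CPM with a median of 1098 CPM, overlapped that of control epiblast-like cells.

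**Figure D2:**
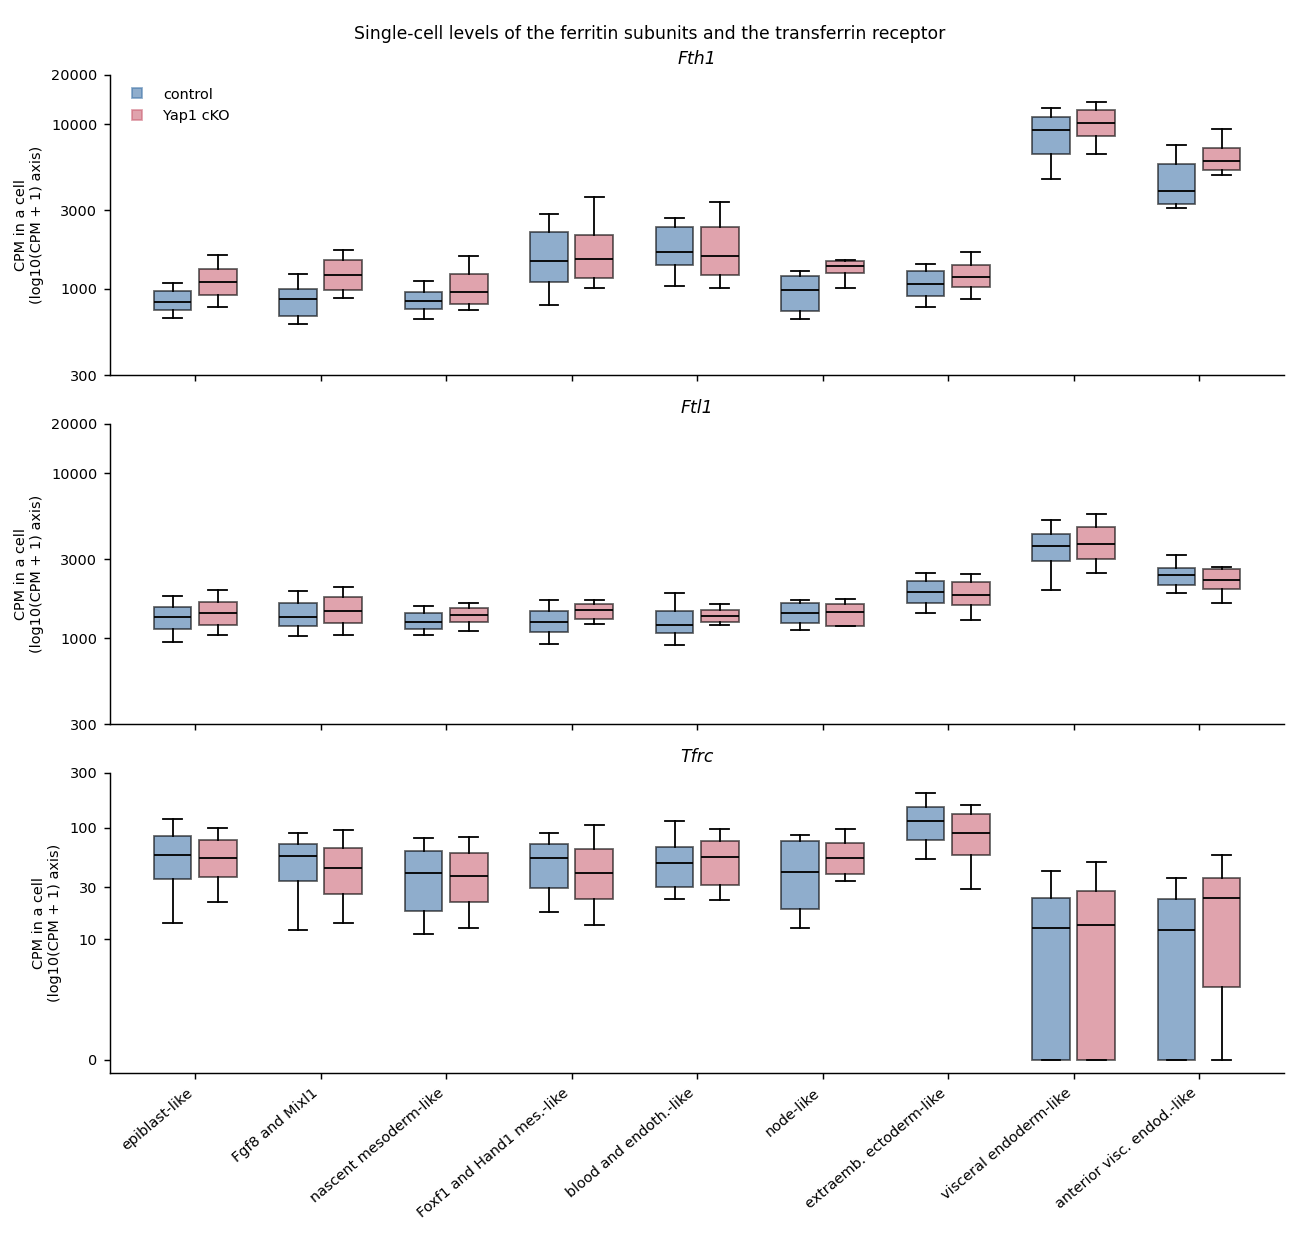
Single-cell CPM of Fth1, Ftl1 and Tfrc (log10(CPM + 1) axis) by population and library, with boxes for the quartiles, a line for the median and whiskers to the outermost cells within the 10th to 90th percentile. For Fth1, the median visceral endoderm-like cell lies at 9199 CPM in control, against 838 CPM for the median epiblast-like cell.

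Ftl1 encodes the light ferritin chain, which lacks the ferroxidase centre and promotes formation of the iron core. Its level was more even than that of Fth1: in control it lay between 1259 and 1452 CPM over the 6 embryonic populations, at 1906 CPM in extraembryonic ectoderm-like cells, 2409 CPM in anterior visceral endoderm-like cells and 3671 CPM in visceral endoderm-like cells. In Yap1 cKO cells the embryonic populations lay between 1382 and 1502 CPM, and the other populations were at 1874, 2230 and 3881 CPM in the same sequence. The visceral endoderm-like level was 2.72 times the epiblast-like level in control and 2.63 times in Yap1 cKO, against 10.2 and 8.84 times for Fth1. Neighbouring populations had overlapping intervals in 4 of 8 pairs in control and 5 of 8 in Yap1 cKO, all among the embryonic populations, whose order was thus mostly unresolved.

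The balance of the ferritin chains differed between populations on the UMI scale, which counts transcript ends and was not corrected for capture of each gene. For every Ftl1 UMI, control epiblast-like cells held 0.659 Fth1 UMIs and control visceral endoderm-like cells 2.47. The ratio passed 1 in blood and endothelial progenitor-like cells, at 1.54 in control and 1.4 in Yap1 cKO, and in Foxf1 and Hand1 mesoderm-like cells, at 1.3 and 1.28. Yap1 cKO epiblast-like cells held 0.81 Fth1 UMIs per Ftl1 UMI, and Yap1 cKO Fgf8 and Mixl1 cells 0.895 against 0.659 in control. A ferritin light chain copy, Ftl1-ps1, held only 0.468% of the Ftl1 UMIs in control and 0.438% in Yap1 cKO, while reads shared by several copies may not have been counted at all.

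Tfrc, the receptor that takes in iron-loaded transferrin, was low in visceral endoderm-like cells, the population with the highest Fth1 and Ftl1. Extraembryonic ectoderm-like cells held 117 CPM (control) and 89.4 CPM (Yap1 cKO), the highest level in each library. Across the embryonic populations it ranged from 41.6 to 60 CPM in control and from 42.2 to 54.9 CPM in Yap1 cKO. Visceral endoderm-like cells held 16.2 and 18.5 CPM, which was 0.269 and 0.337 times the epiblast-like level. Neighbouring populations overlapped in 6 of 8 pairs in control and 7 of 8 in Yap1 cKO, but the gap between the extraembryonic ectoderm-like level and the next highest did not close in either library.

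In cells thinned to 30000 UMIs each, a Tfrc UMI was present in 94.9% of control and 88.3% of Yap1 cKO extraembryonic ectoderm-like cells and in 38.2% and 34.7% of visceral endoderm-like cells. Counted against ferritin, Fth1 UMIs outnumbered those of Tfrc 560-fold in control visceral endoderm-like cells and 14.8-fold in control epiblast-like cells. The corresponding values in Yap1 cKO were 571 and 21.8, and in extraembryonic ectoderm-like cells they were 9.85 in control and 14.5 in Yap1 cKO.

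Trf encodes transferrin, the secreted carrier of ferric iron. Visceral endoderm-like cells held 114 CPM (control) and 94.1 CPM (Yap1 cKO) of its mRNA, and the anterior visceral endoderm-like gate 59.7 and 93.3 CPM. Every other population was between 0 and 2.77 CPM, from at most 20 UMIs. None of the nascent mesoderm-like or Foxf1 and Hand1 mesoderm-like cells of the control held a UMI, which leaves levels up to 0.723 and 0.987 CPM possible at this depth.

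After thinning, 84.2% of control and 85.2% of Yap1 cKO visceral endoderm-like cells held a Trf UMI, against 2.02% and 2.3% of epiblast-like cells and 0.565% and 0.971% of extraembryonic ectoderm-like cells; without thinning the epiblast-like shares were 4.8% and 6.76%. The Trf UMIs were also set against those of other visceral endoderm genes. Per 1000 UMIs summed over 5 visceral endoderm genes (Ttr, Afp, Apoa1, Apoa4 and Rbp4), visceral endoderm-like cells had 9.21 Trf UMIs in the control library and 7.78 in the Yap1 cKO library, whereas epiblast-like cells had 57.5 and 46.4, resting on 13 and 18 Trf UMIs. The value was 0 in control nascent mesoderm-like and Foxf1 and Hand1 mesoderm-like cells, which had no Trf UMI, and 13 in Yap1 cKO extraembryonic ectoderm-like cells, from 3 Trf UMIs. The source of the Trf UMIs outside the visceral endoderm was not tested.

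Slc11a2, the divalent metal transporter that moves iron out of the endosome, had its highest levels in visceral endoderm-like cells, 36.7 CPM (control) and 33.7 CPM (Yap1 cKO). Epiblast-like cells held 6.23 and 8.1 CPM, and the other embryonic populations ranged from 7.97 to 14.9 CPM. The extraembryonic ectoderm-like level was 14.4 and 15 CPM and the anterior visceral endoderm-like level 26.1 and 16.1 CPM. The intervals overlapped in 7 of 8 neighbouring pairs in each library.

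Slc40a1, the iron exporter ferroportin, was an extraembryonic transcript at this stage. Its levels in the control and Yap1 cKO libraries were 56.9 and 50.2 CPM in extraembryonic ectoderm-like cells, 43.9 and 32.2 CPM in the visceral endoderm-like gate and 32.6 and 53.4 CPM in the anterior visceral endoderm-like gate. The embryonic populations lay between 0.258 and 3.94 CPM. It was also the only member past 2-fold in both libraries when extraembryonic ectoderm-like cells were set against epiblast-like cells, by 15.1-fold in control and 20.8-fold in Yap1 cKO, where 1 of 7 measured members compares with 26.1% of all genes.

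Of thinned extraembryonic ectoderm-like cells, 76.3% in control and 67% in Yap1 cKO held a Slc40a1 UMI, against 10.9% and 8.29% of epiblast-like and 1.52% and 1.18% of nascent mesoderm-like cells. Foxf1 and Hand1 mesoderm-like cells and blood and endothelial progenitor-like cells had lower Slc40a1 than epiblast-like cells by more than 2-fold in both libraries, on at most 3 UMIs in each, and it counted as measured there only through its epiblast-like UMIs. The ratios were 0.214 (0.0431 to 0.648) and 0.131 (0.00325 to 0.76) for the former and 0.0946 (0.00236 to 0.543) and 0.287 (0.0339 to 1.09, an interval across 1) for the latter. No other member passed that fold in either comparison, giving 1 of 7 in each, against 16.2% of all genes for the Foxf1 and Hand1 mesoderm and 17.1% for the blood and endothelial progenitors.

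The regulators varied least. Ireb2, which encodes the iron regulatory protein that is degraded when iron is plentiful, ranged from 51.5 to 72.6 CPM over the control populations and from 48.4 to 73.8 CPM over the Yap1 cKO populations. Aco1, whose product is either a cytosolic aconitase with an iron-sulphur cluster or, without it, an RNA-binding regulator, ranged from 17.3 to 38.4 CPM in control and from 14.3 to 39.3 CPM in Yap1 cKO, with visceral endoderm-like cells highest in both. For both genes all 8 neighbouring pairs overlapped in each library. Ireb2 UMIs per Aco1 UMI numbered 3.2 and 3.61 in epiblast-like and 1.73 and 1.5 in visceral endoderm-like cells.

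**Figure D3:**
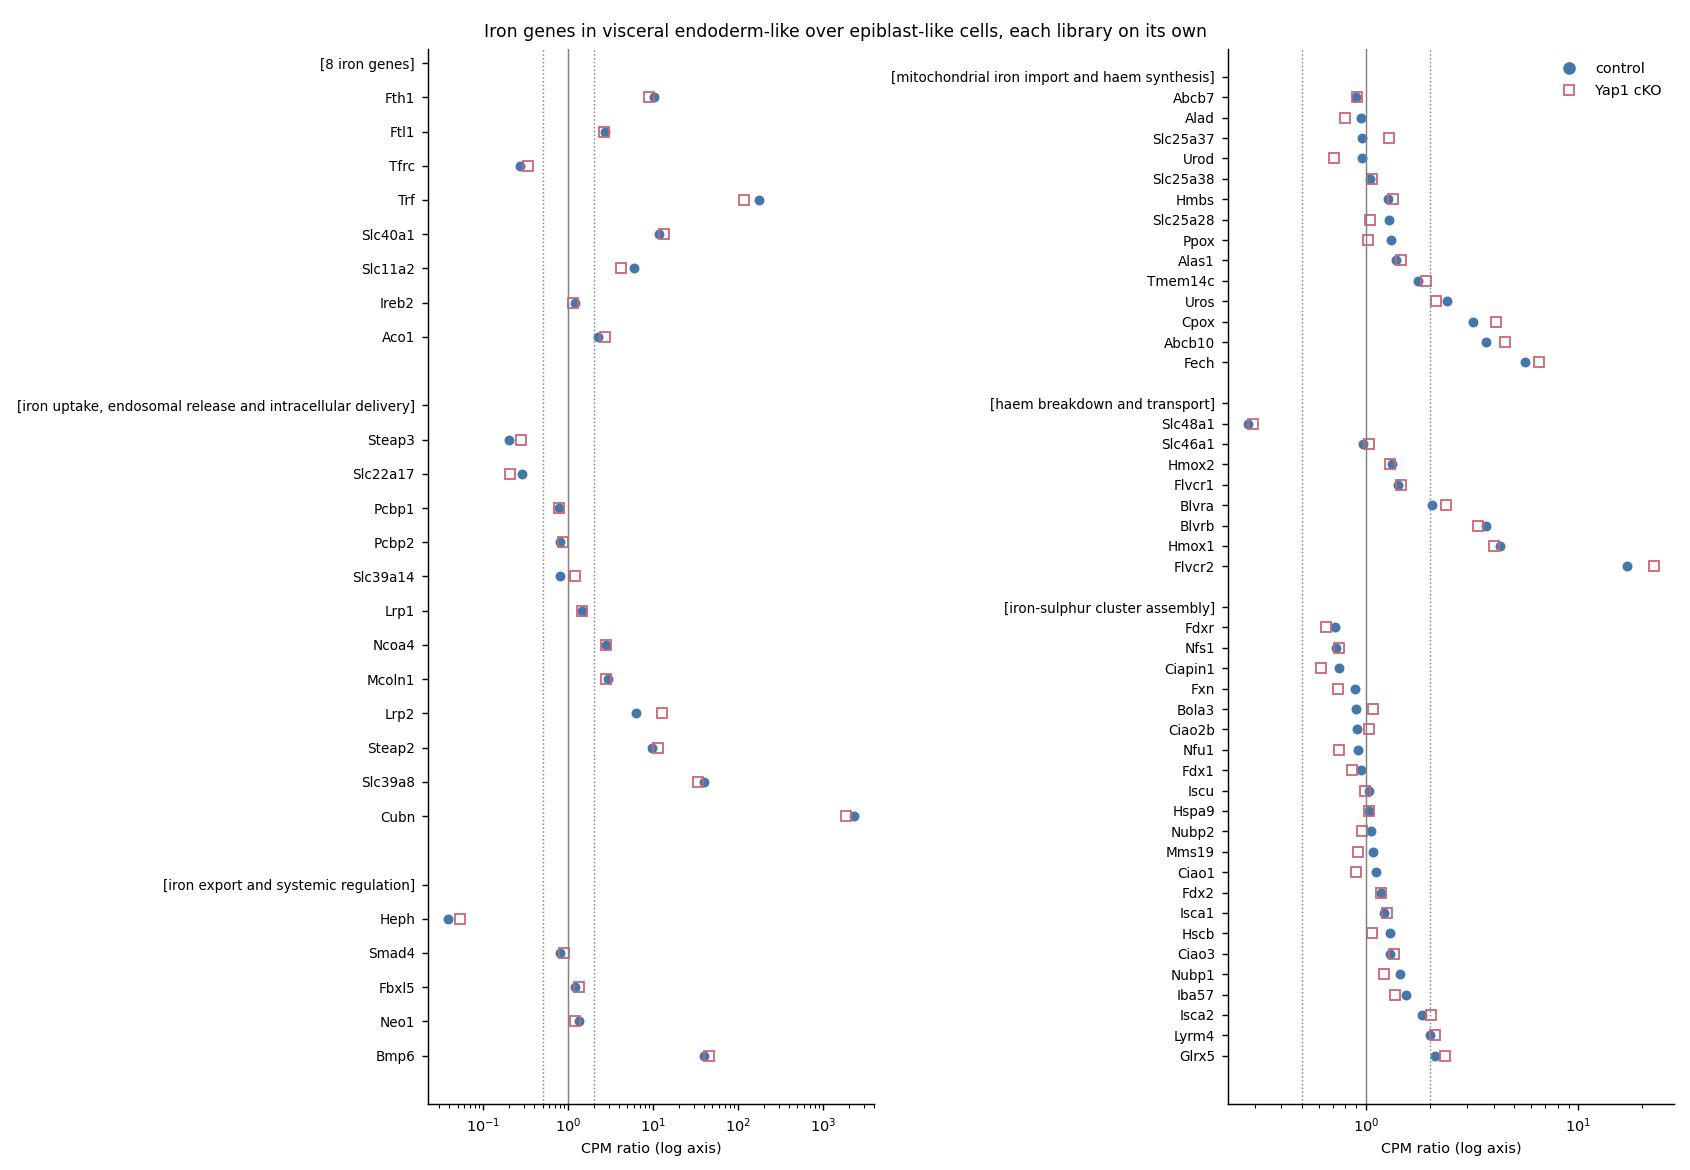
Ratio of visceral endoderm-like to epiblast-like CPM (log axis) for the 8 iron genes and for genes of the other iron pathway lists, in control and Yap1 cKO. Trf has the largest ratio among the 8 (177 and 117, on only 13 and 18 epiblast-like UMIs), and Tfrc lies below 1 in both libraries (0.269 and 0.337).

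Setting visceral endoderm-like against extraembryonic ectoderm-like cells, 4 of 8 members were past 2-fold in both libraries, beside 26.6% of all genes. Fth1, Trf and Slc11a2 were higher and Tfrc lower. Trf counted as measured only through its visceral endoderm-like UMIs, with 5 (control) and 3 (Yap1 cKO) UMIs in extraembryonic ectoderm-like cells. Slc40a1 was within that fold in both libraries. Ftl1 stood close to it, at 1.93 times in control and 2.07 times in Yap1 cKO. Between anterior visceral endoderm-like and visceral endoderm-like cells 0 of 8 members were past 2-fold in both libraries, beside 13.7% of all genes.

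The members' levels were then compared with one another over the 18 points made by 9 populations in the 2 libraries. These points share libraries and lineages, so the correlations of log2(CPM + 1) are descriptive. Fth1 had r = 0.94 with Trf, 0.86 with Ftl1 and -0.79 with Tfrc, and Tfrc had r = -0.86 with Trf. Among 6253 genes with a mean of at least 20 CPM, those with the pattern most like Fth1 were Evi5 (r = 0.985), Rab1a (0.983) and Erp29 (0.975). For Ftl1 they were Atp6v1g1 (0.986), Ctsb (0.976) and Atp6v1e1 (0.975), of which Ctsb encodes a lysosomal protease and the others subunits of the proton pump that acidifies endosomes and lysosomes. Trf was followed most closely by Myo6 (0.989), Hnf4a (0.986) and Dpp4 (0.986), of which Hnf4a is a transcription factor of visceral endoderm and liver. Tfrc was closest to Csnk2a1 (0.942), Ydjc (0.939) and Ube2o (0.939).

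Likeness was also high for Slc40a1 with Ezr (0.971), Apoc1 (0.968) and Plekhf2 (0.962) and for Slc11a2 with Hint3 (0.952), Pmm2 (0.941) and Igf2bp2 (0.939). It was lower for Aco1, with Dnm2 (0.883), Pdpk1 (0.881) and Sacm1l (0.866). Ireb2 had the weakest match, with Hs2st1 (0.775), Ankfy1 (0.751) and Rab5a (0.734).

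Other genes of iron handling were counted by the same fold of 2 in both libraries, visceral endoderm-like over epiblast-like. In the uptake, endosomal release and delivery list, 6 of 12 measured genes were higher and 2 lower, with a median log2 ratio of 1.01 in each library beside -0.12 in control and -0.11 in Yap1 cKO for all genes. The largest were Cubn, an endocytic receptor (2314 and 1854-fold), Slc39a8, a metal importer (39.8 and 33.4), and Steap2, a metalloreductase (9.75 and 11.3). Cubn is counted among the 6 and in the median, although it was a gating marker of visceral endoderm and its direction was favoured by the gate. Steap3, the ferrireductase of the transferrin cycle, was at 0.201 and 0.279 times and Slc22a17 at 0.288 and 0.206 times. Of 5 measured export and systemic genes, Bmp6, a ligand that induces hepcidin, was higher (39.9 and 45) and Heph, a ferroxidase, lower (0.0386 and 0.0534). Cubn and Bmp6 counted as measured only through their visceral endoderm-like UMIs, so their ratios rest on few epiblast-like UMIs.

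In haem synthesis 4 of 14 were higher and none lower, and 10 were within 2-fold. Of all 11966 genes measured in this comparison, 1929 were higher and 2251 lower. The higher ones were led by Fech (5.62 and 6.52), which inserts iron into haem, Abcb10 (3.66 and 4.53) and Cpox (3.2 and 4.09). In haem breakdown and transport 4 of 8 were higher, led by Flvcr2 (16.9 and 22.7), Hmox1 (4.28 and 4), the haem oxygenase that frees iron, and Blvrb (3.67 and 3.37), and 1 was lower. Iron-sulphur cluster assembly was flatter, with 2 of 22 higher and a median log2 ratio of 0.10 in control and 0.05 in Yap1 cKO. In the lipid peroxidation list, which holds Acsl4 and Keap1 as well as guards, 4 of 8 were higher, including Gpx4 (5.78 and 5.13), and 1 was lower. The 3 measured transcripts of the list of other genes with an iron-responsive element held no call, and in the hypoxia-inducible factor list 1 of 10, Vegfa (15.6 and 19.7), was higher.

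The same lists were counted in extraembryonic ectoderm-like cells. In that comparison 26.1% of all genes were past 2-fold in both libraries, with 1197 higher and 1980 lower of 12179 measured. Against epiblast-like cells 0 of 11 uptake genes were higher and 6 were lower, and in haem synthesis 1 of 14, in iron-sulphur assembly 0 of 22 and in the export list 0 of 4 were higher. In the hypoxia-inducible factor list 2 of 10 were higher, and in the lipid peroxidation list 3 of 9 were higher and 1 lower. Haem breakdown and transport had 3 of 7 higher, namely Slc46a1 (7.99 and 10.6), Hmox1 (7.05 and 6.61) and Blvra (6.7 and 7.04).

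The genotype comparison asked whether the members differed between Yap1 cKO and control within each population. Over the 9 populations, 58 combinations of member and population had at least 50 UMIs, and 7 of these were past 1.5-fold, 4 higher and 3 lower in Yap1 cKO, beside 7.47% of all combinations of gene and population. Counting intervals lay above 1 for 18 combinations, below 1 for 15 and across 1 for 25; over all genes 10.5% lay above and 15.1% below 1, but intervals narrow with UMIs and the genes were not matched on them. None of the members was past 1.5-fold in nascent mesoderm-like, Foxf1 and Hand1 mesoderm-like, blood and endothelial progenitor-like, node-like, extraembryonic ectoderm-like or visceral endoderm-like cells, where 6.47%, 8.4%, 9.76%, 10.1%, 4.99% and 7.41% of all measured genes were.

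**Figure D4:**
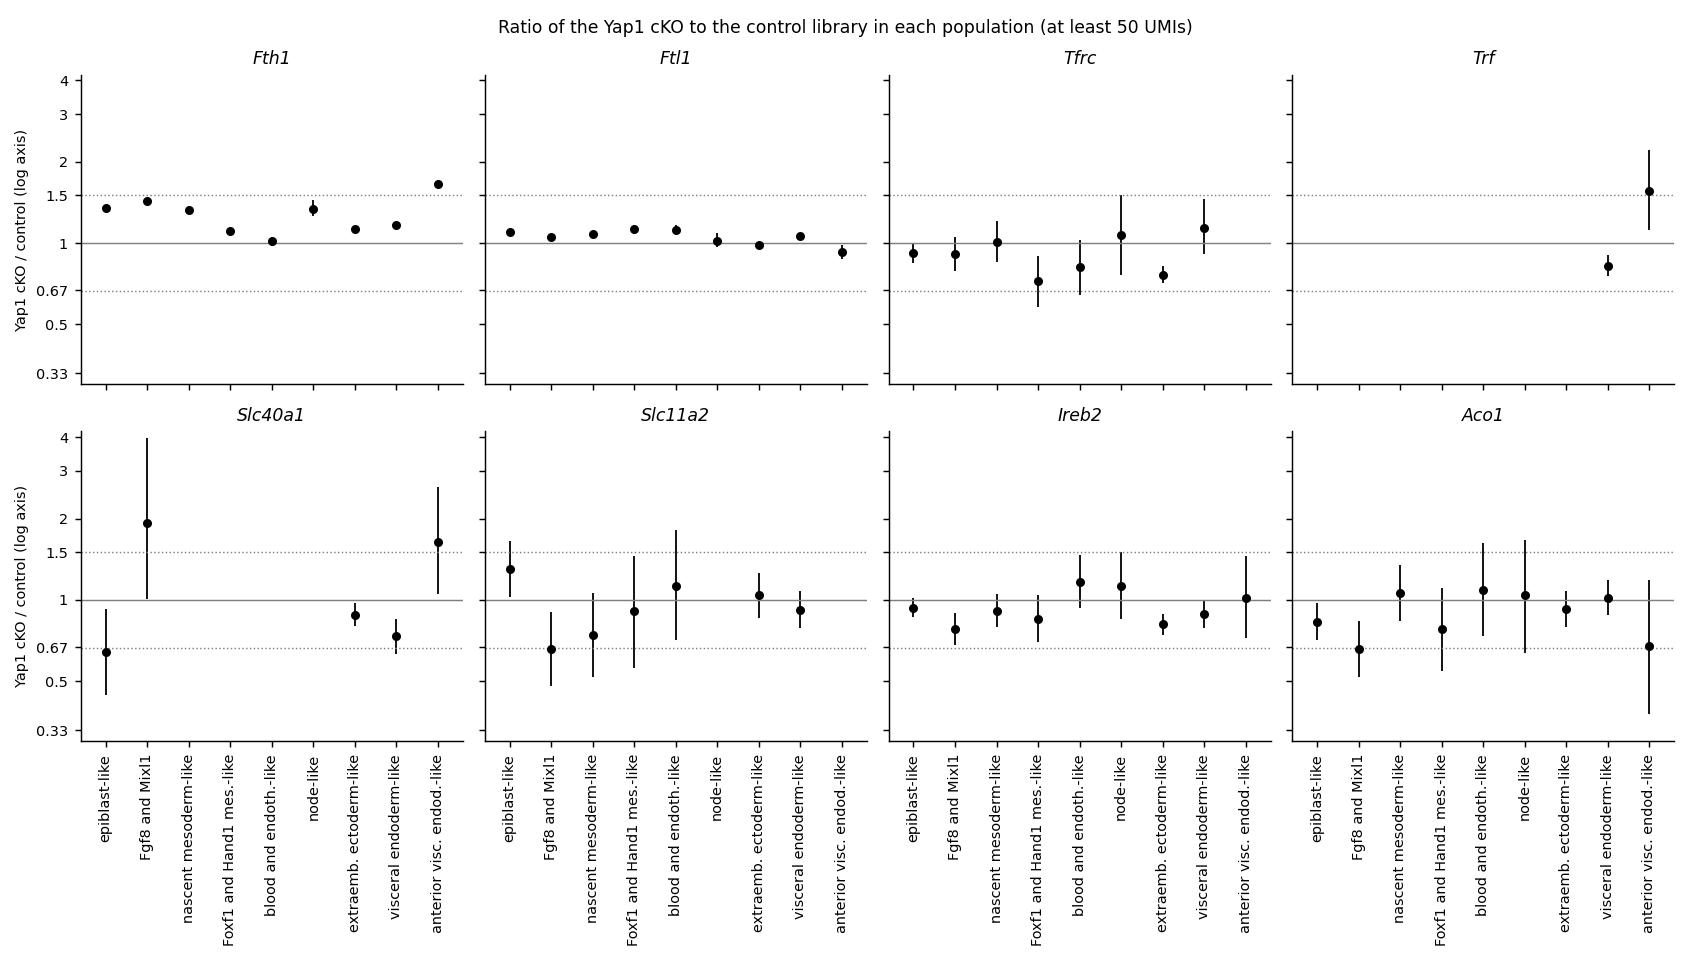
Ratio of Yap1 cKO to control CPM (log axis) for each iron gene and population with at least 50 UMIs, with 95% counting intervals and dotted lines at 1.5-fold. Fth1 lies above 1 in all 9 populations, with an interval that includes 1 only in blood and endothelial progenitor-like cells (1.02).

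Fth1 had the most uniform direction of the members, with a higher level in Yap1 cKO in 9 of 9 populations and an interval above 1 in 8. The 9 populations come from the same 2 libraries, and the share of all genes with such a uniform direction was not counted. It was 1.35-fold higher in epiblast-like cells (interval 1.32 to 1.37), with 887 CPM against 1195 CPM, and 1.43-fold higher in Fgf8 and Mixl1 cells (1.39 to 1.47). These ratios stood at percentiles 95.8 and 96.3 of all genes measured in the respective population, although neither was past 1.5-fold. The percentile was 92.7 in nascent mesoderm-like, 93.9 in node-like, 74.9 in Foxf1 and Hand1 mesoderm-like and 51.2 in blood and endothelial progenitor-like cells. It was 83.8 in extraembryonic ectoderm-like, 84.5 in visceral endoderm-like and 97.2 in anterior visceral endoderm-like cells. The Fth1 ratio was 1.32 (1.28 to 1.37) in nascent mesoderm-like and 1.34 (1.26 to 1.44) in node-like cells. The node-like value rests on 26 control and 13 Yap1 cKO cells. It ranged from 1.14 with gate thresholds doubled to 1.53 with a minimum of 2000 genes. Smaller ratios were measured in Foxf1 and Hand1 mesoderm-like cells, 1.11 (1.07 to 1.15), and blood and endothelial progenitor-like cells, 1.02 (0.978 to 1.05).

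The extraembryonic populations also had higher Fth1 in the Yap1 cKO library. The ratio was 1.13 (1.1 to 1.15) in extraembryonic ectoderm-like and 1.17 (1.16 to 1.18) in visceral endoderm-like cells. The anterior visceral endoderm-like gate had 1.65 (1.59 to 1.71), from 17 control and 15 Yap1 cKO cells. A single Yap1 cKO cell held 25.3% of its Fth1 UMIs, and without the highest cell of each library the ratio was 1.5. Yap1 itself was at 0.38 times the control (0.204 to 0.684) in this gate and at 0.719 times (0.61 to 0.846) in extraembryonic ectoderm-like cells. Definitive endoderm markers (Sox17, Trh, Cxcr4, Gsc and Cpm) summed to 888 CPM (control) and 1199 CPM (Yap1 cKO) in the anterior gate. In visceral endoderm-like cells they summed to 157 and 154 CPM. The lineage origin of the anterior gate's cells was not tested.

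Visceral endoderm transcripts were also slightly more abundant among the embryonic cells of the Yap1 cKO library. The summed level of the same 5 genes in epiblast-like cells was 0.0902% of that in visceral endoderm-like cells in control and 0.144% in Yap1 cKO, a share at which Fth1 would add 8.16 and 15.2 CPM. In Fgf8 and Mixl1 cells the shares were 0.0744% and 0.236%, or 6.74 and 25 CPM of Fth1. The measured Fth1 difference between the libraries was 308 CPM in epiblast-like and 404 CPM in Fgf8 and Mixl1 cells. Subtracting the share, which takes visceral endoderm RNA to have the composition of the visceral endoderm-like cells, left all 44 ratios so computed inside their original intervals. Shares this small leave little to subtract under that assumption, which was not checked. The part of visceral endoderm RNA in the Fth1 ratios was not tested.

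Sex composition moved with genotype, so Y-bearing and Xist-bearing cells were also compared on their own. They come from different embryos of the pools, so sex and embryo cannot be told apart. Comparing only Y-bearing cells, the Fth1 ratio was 1.4 in epiblast-like and 1.46 in Fgf8 and Mixl1 cells, and comparing only Xist-bearing cells it was 1.35 and 1.3. Nascent mesoderm-like cells gave 1.15 and 1.28, extraembryonic ectoderm-like cells 1.16 and 1.2, visceral endoderm-like cells 1.24 and 1.07, and the anterior gate 1.47 and 1.58. The anterior values rest on 5 control and 4 Yap1 cKO Y-bearing cells and on 11 and 6 Xist-bearing cells. Y-bearing nascent mesoderm-like cells numbered 31 in control and 10 in Yap1 cKO. The direction turned among Y-bearing cells in Foxf1 and Hand1 mesoderm-like cells (0.777, against 1.17 in Xist-bearing cells) and in blood and endothelial progenitor-like cells (0.651, against 1.36). These Y-bearing values rest on 32 control and 10 Yap1 cKO cells for the former and on 15 and 11 cells for the latter. Node-like cells gave 1.35 among Xist-bearing cells and no value among Y-bearing cells, since the Yap1 cKO library had none.

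**Figure D5:**
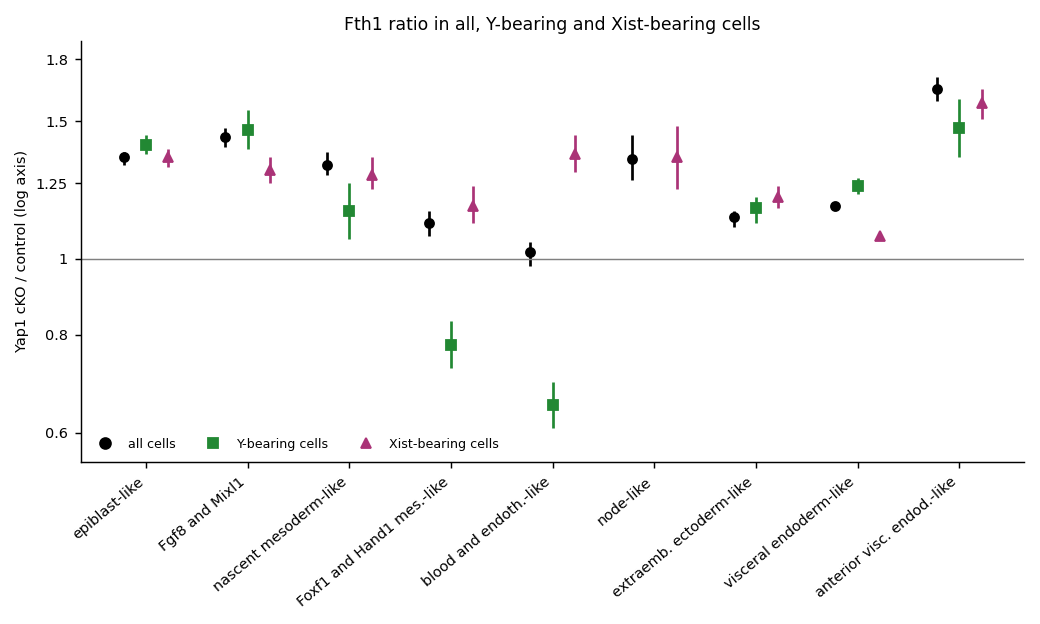
Ratio of Yap1 cKO to control Fth1 CPM (log axis) in all cells, in Y-bearing cells and in Xist-bearing cells of each population, with 95% counting intervals. Epiblast-like cells lie at 1.35, 1.4 and 1.35, while blood and endothelial progenitor-like cells lie at 1.02, 0.651 and 1.36. Of these, 0.651 rests on 15 control and 11 Yap1 cKO cells.

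For Ftl1 no population was past 1.5-fold. Epiblast-like cells held 1347 CPM (control) and 1476 CPM (Yap1 cKO), a ratio of 1.1, and over the populations its ratio ranged from 0.926 in anterior visceral endoderm-like to 1.13 in Foxf1 and Hand1 mesoderm-like cells. Tfrc was 0.915 times the control in epiblast-like, 0.763 times (0.709 to 0.821) in extraembryonic ectoderm-like and 0.721 times in Foxf1 and Hand1 mesoderm-like cells. In epiblast-like cells its ratio was 0.661 among Y-bearing cells (131 control and 47 Yap1 cKO) and 1 among Xist-bearing cells. Sex, embryo and genotype cannot be told apart in these values. Ireb2 was 0.813 times the control in extraembryonic ectoderm-like and 0.781 times in Fgf8 and Mixl1 cells.

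In epiblast-like cells 1 of 7 measured members was past 1.5-fold, beside 5.09% of all genes, and it was Slc40a1 at 0.643 times the control (0.445 to 0.923), from 76 control and 54 Yap1 cKO UMIs. The members' median log2 ratio there was -0.09, beside -0.05 for all genes. Slc11a2, at 6.23 and 8.1 CPM, had a ratio of 1.3 (1.03 to 1.65), and Aco1 one of 0.832.

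The Fgf8 and Mixl1 population had 3 of 7 past 1.5-fold, beside 8.43% of all genes. Slc40a1 was higher in Yap1 cKO, with 2.05 against 3.94 CPM (1.92, 1.01 to 3.98), from 12 and 48 UMIs, but the ratio was 1.24 when the gate thresholds were halved. Slc11a2 was lower, at 12.1 and 7.97 CPM (0.657, or 0.868 with thresholds doubled), as was Aco1, at 21.7 and 14.3 CPM (0.659). This gate held 75 control and 129 Yap1 cKO cells, while 74 and 89 cells of the libraries, inside or outside the gate, had a marker sum from 20% below to 25% above its threshold. Its anterior visceral endoderm markers summed to 659 CPM (control) and 315 CPM (Yap1 cKO). The same list summed to 1220 and 969 CPM in node-like and 646 and 486 CPM in nascent mesoderm-like cells. The visceral endoderm list summed to 10.8 and 41.7 CPM in this gate, against 5160 and 6498 CPM in the anterior visceral endoderm-like gate. The Fgf8 and Mixl1 gate also held 2 Yap1 cKO and 0 control cells over 200 CPM of the 5 visceral endoderm genes. Leaving these out, the ratios were 1.67 for Slc40a1, 0.627 for Slc11a2 and 0.651 for Aco1. The part of the anterior marker difference in these ratios was not tested.

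Anterior visceral endoderm-like cells also had 3 of 6 past 1.5-fold, all higher in Yap1 cKO, beside 9.67% of all genes: Fth1 (1.65), Trf (1.56, 1.12 to 2.2) and Slc40a1 (1.64). Without the highest cell of each library Trf had 1.46, and in Xist-bearing cells Slc40a1 had 1.13. Visceral endoderm markers, summed, reached 5160 CPM (control) and 6498 CPM (Yap1 cKO) in that gate, and their part in these ratios was not tested. In the larger visceral endoderm-like population Trf was instead at 0.825 times (0.754 to 0.903) and Slc40a1 at 0.733 times the control. Slc40a1 was not uniform there, with 2.02 among Y-bearing and 0.649 among Xist-bearing cells.

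Of the pathway lists in epiblast-like cells, no gene was more than 1.5-fold higher in Yap1 cKO. Lower by that fold were Steap3 (0.465), Lrp2, an endocytic receptor (0.524), and Slc2a1, the glucose transporter in the hypoxia-inducible factor list (0.592). So was Acsl4, which activates polyunsaturated fatty acids (0.611). These were 2 of 11 measured uptake genes, 1 of 10 in the hypoxia-inducible factor list and 1 of 9 in the lipid peroxidation list. The other lists had none, and 5.09% of all genes were past 1.5-fold in either direction. In iron-sulphur cluster assembly, 0 of 22 genes were past 1.5-fold while 11 of 22 had an interval above 1, beside 12.4% of all genes, which were not matched on UMIs. Among visceral endoderm-like cells the call was Epas1 alone, at 3.34-fold from 5 control and 46 Yap1 cKO UMIs, and extraembryonic ectoderm-like cells had none. Over all genes, 7.41% and 4.99% were past 1.5-fold in these populations. Epas1 only just reached the minimum UMIs of a measured gene, and mostly through its Yap1 cKO UMIs. At its control level in both libraries it would not have counted as measured, so its call depended on that minimum.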

How the data were processed

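Embryos at E7 were dissociated and profiled with 10x Genomics single-cell RNA-seq, 1 library per genotype. The deposited files hold raw UMI counts per gene and barcode, which the authors made with Cell Ranger 7.1.0 on mm10 (per the labels' processing notes); the authors' ambient RNA correction, clustering and tests between cells were not repeated. Barcodes with at least 5000 detected genes were kept (791 control, 864 Yap1 cKO, 15974 to 317876 and 17169 to 324147 UMIs each); 15 barcodes in each library entered no population, of which 6 in control and 1 in Yap1 cKO had parietal endoderm, trophoblast giant or maternal blood markers. Cells were gated by summed CPM of marker lists, and UMIs were summed per population and library. The members, lists and gate thresholds were chosen with earlier results of these data known.

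Levels are CPM with exact Poisson intervals, shares carry Clopper-Pearson intervals, and each genotype ratio carries the exact binomial interval conditional on its UMI total. A gene counted as measured at 50 UMIs or more, summed over the libraries for genotype ratios and within each library between populations. Named genes were all members, the largest at most 3 per list and direction past the fold, and the 3 genes most like each member. Cells were thinned without replacement, leaving out 13 control and 20 Yap1 cKO cells under 30000 UMIs. Y-bearing or Xist-bearing cells had at least 2 UMIs of that kind and 0 of the other. Doublets were kept; Scrublet marked 4 control (0.506%) and 18 Yap1 cKO (2.08%) cells, which were left out as an alternative. Coordinates and transcripts came from GENCODE M21 (GRCm38). The scripts, tested on simulated data, used Python 3.11.15, numpy 2.4.6, scipy 1.17.1, pandas 2.3.3, scanpy 1.11.5 and matplotlib 3.10.9.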

Additional observations from a re-analysis of the deposited data

Results flagged for a closer look

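For 4 members the ratio of Yap1 cKO to control lay on opposite sides of 1 in different populations, with counting intervals that excluded 1 on both sides. The difference between populations was not tested in any of them, because each genotype is 1 library. For each member the populations named are those with the highest and the lowest ratio among those whose interval excluded 1. Slc40a1 was at 1.92 times the control in Fgf8 and Mixl1 cells (1.01 to 3.98) and at 0.643 times in epiblast-like cells. The former ratio rests on 12 control and 48 Yap1 cKO UMIs and was 1.24 with gate thresholds halved. Slc11a2 was at 0.657 times in Fgf8 and Mixl1 cells and at 1.3 times in epiblast-like cells. Trf was at 1.56 times in anterior visceral endoderm-like cells and at 0.825 times in visceral endoderm-like cells. Ftl1 was at 1.13 times in Foxf1 and Hand1 mesoderm-like cells and at 0.926 times in anterior visceral endoderm-like cells.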

How the results depend on the processing

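No paired analysis was possible because each genotype has 1 library. Where 7 combinations of member and population were past 1.5-fold between libraries, 19 passed a lower limit of a 25% difference, 0 passed a fold of 2 and 2 were left with a minimum of 200 UMIs. In epiblast-like cells the count of 1 became 3 at a 25% difference, and 0 at a fold of 2, with a minimum of 200 UMIs or with the mean of single-cell CPM. Visceral endoderm-like over epiblast-like, 4 members rather than 7 passed a fold of 3, and extraembryonic ectoderm-like over epiblast-like, 3 rather than 1 passed a fold of 1.5. The share of all genes was not counted at any of these alternative settings, so the counts have no background beside them. Of the 58 ratios, 12 moved beyond their counting interval with gate thresholds doubled and 8 with thresholds halved, and 30 of the 53 available in Y-bearing cells and 16 of 58 in Xist-bearing cells did so; the cause was not tested. Over all alternatives the Fth1 ratio ranged from 1.24 to 1.4 in epiblast-like and from 1.3 to 1.57 in Fgf8 and Mixl1 cells. Leaving out the cell with most UMIs of a member, and subtracting the visceral endoderm share, were chosen after seeing the data; these moved 1 of 58 and 0 of 44 ratios. Depth limits Trf and Slc40a1 in the embryonic populations, where levels rest on at most 20 and 76 UMIs.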

Other observations

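Blood and endothelial progenitor-like cells, which precede haemoglobin-making cells, were set against epiblast-like cells for iron genes other than the 8 described above, in a comparison in which 17.1% of all genes were past 2-fold in both libraries. In the uptake list 2 of 10 were higher and 3 lower, and in export 1 of 5 was higher. In haem synthesis 1 of 14 was higher and in haem breakdown 1 of 6 was lower. In the lipid peroxidation list 2 of 8 were higher and 1, Acsl4, lower. In the hypoxia-inducible factor list 2 of 10 were higher and 1 lower. Bmp6 was higher (10.8-fold in control and 11.5-fold in Yap1 cKO), as were Slc39a8 (9.5 and 4.29), Abcb10, a mitochondrial transporter of haem synthesis (5.45 and 4.48), and Gpx4, which reduces lipid peroxides (2.59 and 2.56). Lower were Slc39a14 (0.325 and 0.366 times) and Acsl4 (0.138 and 0.347 times), and also Lrp2, Steap3 and Slc48a1, each on at most 3 UMIs per library in the progenitor-like cells. In iron-sulphur cluster assembly 0 of 22 genes were past 2-fold.

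Anterior visceral endoderm-like cells, in which no member was past 2-fold of the visceral endoderm-like level in both libraries, held less of several other iron genes. In that comparison 13.7% of all genes were past 2-fold. Fech was at 0.237 times the visceral endoderm-like level in control and 0.18 times in Yap1 cKO, Cpox at 0.39 and 0.404 times, and Hmox1 at 0.447 and 0.477 times. Bmp6 had 0 UMIs in the anterior visceral endoderm-like cells of either library, against 47.3 and 46.4 CPM in visceral endoderm-like cells. It counted as measured there only through its visceral endoderm-like UMIs. Ppox was higher, at 3.42 and 3.81 times.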
